A study of Homo sapiens with 4 samples.

Results

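Promoters of long intergenic noncoding RNA genes were followed through 4 lists of open chromatin peaks, as peaks centred within 1000 bp of a transcription start site (TSS) whose nearest gene has a name that begins with LINC, by the distances and names deposited with the peaks. There were 1113 such peaks among 192435 peaks in all. They numbered 274 of 44760 peaks in shARID1A cells with rapamycin, 288 of 45700 in shARID1A cells in DMSO, 265 of 49783 in shControl cells with rapamycin and 286 of 52192 in shControl cells in DMSO. They named 380 genes and, once overlapping peaks were merged, made 382 regions, of which 3 carried 2 gene names each. The cells were Huh7, an established human liver cancer line grown in DMEM with serum, and carried a short hairpin RNA against ARID1A, a DNA-contacting member of the BAF class of SWI/SNF remodelling complexes, or a control hairpin. Rapamycin, which inhibits the kinase complex mTORC1, was given at 100 nM for 6 h, and DMSO is its solvent. Each group held 1 ATAC-seq library from the nuclei of 50000 cells, in which a transposase cuts and tags open DNA. As a group held 1 library, differences have no replicate check and no p-value is given. The exact 95% binomial intervals cover counting error only. The labels do not say whether a line was 1 clone or a pool, and a hairpin acts on the transcript, so these lists do not check the loss of ARID1A.

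The name LINC marks genes that are transcribed like coding genes, often spliced, and lie mainly between coding genes. Many start from a CpG-poor promoter and are used in few cell types, while others start from a CpG island that they share with a coding gene transcribed the other way. SWI/SNF complexes move and eject nucleosomes, at enhancers in particular and at some promoters, and an ATAC-seq peak marks such nucleosome-free DNA without showing whether a transcript is made.

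The sequences of 8 promoter windows are shown first, because they span the kinds of LINC promoter described below, from a CpG island next to a coding gene to CpG-poor promoters open in 1 genotype or treatment. Each window runs from 250 bases before to 50 bases after a TSS in RefSeq's annotation of GRCh38.p14, reads 5′ to 3′ on the strand of the gene, and has every CG and every TGACTCA or TGAGTCA in capitals. TGACTCA and its reverse complement TGAGTCA are the letters that AP-1 factors are known to bind. LINC01134 (chr1:3900154-3900453, plus strand) and LINC00662 (chr19:27793891-27794190, minus strand) were open in all lists. LINC00877 (chr3:72100406-72100705, minus strand) and LINC02361 (chr12:132189646-132189945, minus strand) were open in both shARID1A lists only. LINC00332 (chr13:40181559-40181858, plus strand) and LINC00488 (chr3:109177915-109178214, plus strand) were open in both shControl lists only. LINC01806 (chr2:161244489-161244788, plus strand) was open in both rapamycin lists only, and LINC02574 (chr1:27662673-27662972, minus strand) in both DMSO lists only. The peaks covered 300 of the 300 bases for LINC01134, LINC00662 and LINC00488 in each list with a peak, 240 and 300 for LINC02361, and 218 and 228 for LINC00332. They covered 299 and 110 bases for LINC01806, but 48 and 58 bases at the 5′ end of the LINC00877 window and 0 and 83 bases of the LINC02574 window, whose peaks lay mostly upstream.
LINC01134: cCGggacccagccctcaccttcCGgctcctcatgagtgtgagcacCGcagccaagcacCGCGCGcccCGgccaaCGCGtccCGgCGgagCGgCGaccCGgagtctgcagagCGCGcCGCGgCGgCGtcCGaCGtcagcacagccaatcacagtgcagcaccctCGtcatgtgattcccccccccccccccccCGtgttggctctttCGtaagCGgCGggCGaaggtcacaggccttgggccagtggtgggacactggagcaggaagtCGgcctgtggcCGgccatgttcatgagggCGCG
LINC00662: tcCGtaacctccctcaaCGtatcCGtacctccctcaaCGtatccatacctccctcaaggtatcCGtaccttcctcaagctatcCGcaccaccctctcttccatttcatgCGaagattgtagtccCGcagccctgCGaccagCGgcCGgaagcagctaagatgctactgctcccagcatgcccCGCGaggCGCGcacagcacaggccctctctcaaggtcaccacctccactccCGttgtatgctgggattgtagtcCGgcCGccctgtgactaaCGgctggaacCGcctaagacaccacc
LINC00877: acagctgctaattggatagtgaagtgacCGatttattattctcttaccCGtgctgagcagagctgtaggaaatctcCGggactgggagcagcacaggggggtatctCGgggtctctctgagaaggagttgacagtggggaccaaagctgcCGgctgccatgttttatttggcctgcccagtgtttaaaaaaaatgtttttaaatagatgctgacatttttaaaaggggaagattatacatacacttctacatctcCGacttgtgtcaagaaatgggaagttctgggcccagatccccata
LINC02361: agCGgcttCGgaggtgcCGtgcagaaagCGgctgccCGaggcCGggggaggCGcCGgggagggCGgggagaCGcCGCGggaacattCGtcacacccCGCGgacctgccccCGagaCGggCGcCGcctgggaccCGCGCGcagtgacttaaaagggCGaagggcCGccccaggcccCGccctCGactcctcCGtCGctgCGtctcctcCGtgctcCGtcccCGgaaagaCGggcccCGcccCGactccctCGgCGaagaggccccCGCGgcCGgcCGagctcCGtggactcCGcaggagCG
LINC00332: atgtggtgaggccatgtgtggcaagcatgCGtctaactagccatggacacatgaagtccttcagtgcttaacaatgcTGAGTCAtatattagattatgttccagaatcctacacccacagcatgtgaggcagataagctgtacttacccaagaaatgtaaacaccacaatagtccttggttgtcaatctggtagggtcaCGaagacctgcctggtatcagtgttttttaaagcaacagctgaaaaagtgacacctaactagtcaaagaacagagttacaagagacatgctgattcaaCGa
LINC00488: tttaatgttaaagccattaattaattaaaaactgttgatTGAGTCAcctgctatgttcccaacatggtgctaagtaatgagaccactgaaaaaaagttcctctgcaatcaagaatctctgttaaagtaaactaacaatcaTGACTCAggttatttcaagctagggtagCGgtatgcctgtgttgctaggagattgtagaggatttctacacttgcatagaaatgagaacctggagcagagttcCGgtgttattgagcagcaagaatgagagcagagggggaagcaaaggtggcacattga
LINC01806: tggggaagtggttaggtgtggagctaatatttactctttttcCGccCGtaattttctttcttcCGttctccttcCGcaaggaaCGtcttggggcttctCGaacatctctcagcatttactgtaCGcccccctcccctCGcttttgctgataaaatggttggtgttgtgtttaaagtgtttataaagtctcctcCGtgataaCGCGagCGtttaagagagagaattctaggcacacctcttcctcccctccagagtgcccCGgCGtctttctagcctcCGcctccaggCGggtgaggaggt
LINC02574: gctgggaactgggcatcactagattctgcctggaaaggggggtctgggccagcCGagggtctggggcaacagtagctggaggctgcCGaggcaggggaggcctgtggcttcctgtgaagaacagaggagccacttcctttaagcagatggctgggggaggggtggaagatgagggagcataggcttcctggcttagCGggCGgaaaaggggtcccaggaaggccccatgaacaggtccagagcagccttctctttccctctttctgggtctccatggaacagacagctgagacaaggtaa
These windows hold 32, 20, 6, 44, 3, 2, 16 and 4 CG, in the order shown.

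The libraries themselves set limits on what an absent peak means. Peak numbers ran without a break in shARID1A rapamycin and shControl DMSO, but 6666 numbers were skipped in shARID1A DMSO and 1093 in shControl rapamycin, so a region may lack a peak there because its row is not in the list. Neither read depth nor the scale of the deposited score was known. The score served only to rank peaks within a list, where 0% is the strongest peak and 100% the weakest. Of 10 hepatocyte genes, 6, 4, 5 and 6 had a promoter peak in shARID1A rapamycin, shARID1A DMSO, shControl rapamycin and shControl DMSO, with APOA1, APOB, HNF4A and TF among them in every list, while ALB, AFP and SERPINA1 had none in any list. Of 10 genes of blood, vessel, connective tissue and nerve cells, 2, 2, 1 and 2 had one, and SYP, a gene of synaptic vesicles, accounted for 1 of them in each list.

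Most LINC promoter regions were open whatever the genotype or treatment. Of the 382 regions, 275 were open in all 4 lists, which is 72.0% with an interval of 67.2% to 76.4%. The share was 87.9% of 12148 regions at promoters of coding genes and 81.8% of 15593 regions at all other promoters. A region counted as open in a list if any peak there overlapped it by 1 bp, whichever gene that peak was assigned to. Of the 1306 pairs of a region and a list with a peak, 201 were open through a peak that was itself centred farther away or given to another gene.

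LINC promoter peaks were weaker than those of coding genes in each list. Their median rank was 36.8% in shARID1A rapamycin, 36.8% in shARID1A DMSO, 37.9% in shControl rapamycin and 38.1% in shControl DMSO, against 16.7%, 16.4%, 16.3% and 16.2% for promoter peaks of coding genes. Promoter peaks of other noncoding genes stood closer to LINC, at 31.5%, 31.6%, 31.96% and 32.4%. The stronger 50% of a list held 66.1%, 63.2%, 66.4% and 61.9% of the LINC promoter peaks in the same order, against 67.3%, 67.4%, 67.7% and 65.4% for other noncoding genes. The strength of a region went with the number of lists that held it. The 275 regions open in all lists had a median of 30.7% for their mean rank, and the 107 others had 80.2%, with 97 of the 107 past 50%. Among regions of a mean rank up to 25%, 116 of 116 were open in all lists, followed by 92 of 102 from 25% to 50%, 57 of 88 from 50% to 75% and 10 of 76 beyond. Both quantities come from the same peaks, so this is a description of the lists.

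**Figure D1:**
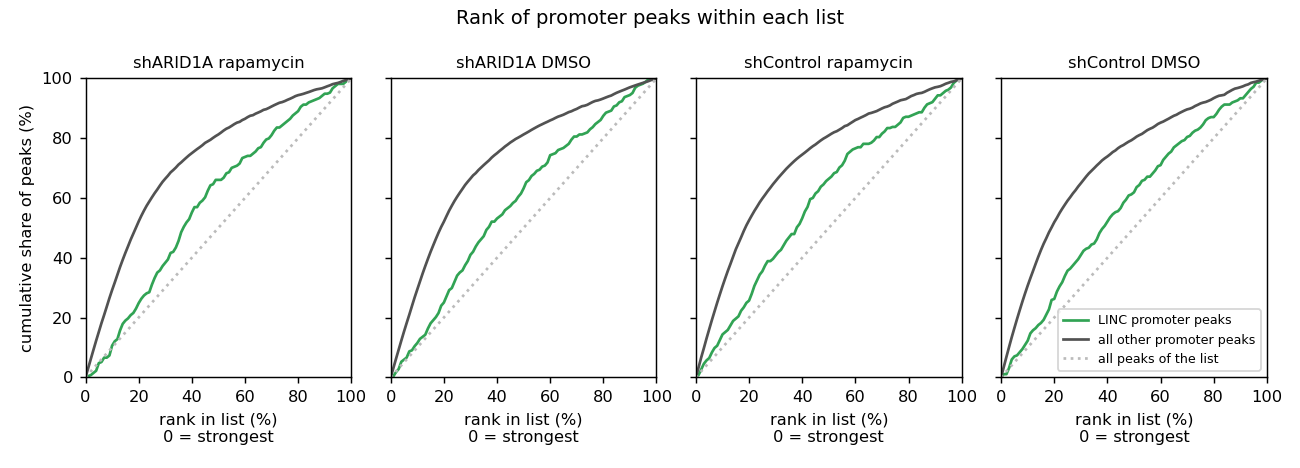
Cumulative share of promoter peaks (y, %) up to a given rank within each list (x, %, 0 is the strongest peak), for LINC promoter peaks (green) and all other promoter peaks (grey), with the diagonal for all peaks of a list. In each of the 4 lists the LINC curve runs between the other promoters and the diagonal, with medians from 36.8% to 38.1%.

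Within the distance that defined them, most peaks carried a promoter annotation, a share that this distance rule partly sets. The label also went to peaks well off the TSS, such as that of LINC02564 in shControl rapamycin, 956 bp upstream. Of the 1113 peaks, 801 (72.0%) carried a promoter annotation, 179 an intron, 131 an exon and 2 a transcription end site. Only 289 (26.0%) were centred within 100 bp of the TSS. The annotation named another gene than the nearest one in 149. In the last 100 bp inside the limit of 1000 bp, 30 peaks had a median rank of 59.3%. In the first 100 bp outside it, 28 peaks nearest to a LINC gene had 75.4%.

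The strongest LINC promoters ranked high in every list. The highest was LINC00663 (chromosome 19, 19776005 to 19776967), a noncoding gene in a cluster of zinc finger genes, whose peak ranked 31 in shARID1A rapamycin, 32 in shARID1A DMSO, 31 in shControl rapamycin and 19 in shControl DMSO. LINC00662, also on chromosome 19 and studied for its levels in several cancers, ranked 306, 681, 283 and 297 in the same order of lists. Both lay among the strongest 2% of peaks in every list. They were followed by LINC01446, LINC01144, LINC01003, LINC01134, LINC01578, LINC00271, LINC02588 and LINC02585, none of them weaker than 4.998% in any list. LINC01578 is CHASERR in RefSeq, a noncoding RNA that lies next to CHD2 and restrains it. It ranked at 4.66%, 1.72%, 1.73% and 3.75%.

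Several of these strong regions serve a coding gene as well. LINC01134 starts opposite C1orf174, LINC00271 (AHI1-DT in RefSeq) opposite AHI1, LINC02588 (NOVA1-DT) near NOVA1, and LINC02585 opposite CELSR3. In all, 33 of the 382 regions (8.64%) lay within 1 kb of a coding TSS of RefSeq, with a coding TSS on the opposite strand in 29. Of the 33, 29 were open in all lists, which is 87.9% with an interval of 71.8% to 96.6%, and their median rank was 18.9%. Of the 349 regions with no coding TSS in reach, 246 were open in all lists, which is 70.5% with an interval of 65.4% to 75.2%, and their median rank was 45.5%. The coding TSS was chosen as the measure after the data were seen. The measure planned first was a coding gene end or coding promoter peak within 1 kb, which 50 regions (13.1%) had. Of these 50, 86.0% were open in all lists, with a median rank of 23.1%. The other 332 regions gave 69.9% and 46.1%. Regions shared with a coding gene were thus the stronger ones, but most LINC regions open in all lists had no coding TSS within 1 kb. A peak over both starts cannot be assigned to 1 of the genes.

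LINC promoters under a peak were richer in CpG than those under none. RefSeq held windows for 1583 LINC genes, 1748 windows in all, of which 233 (13.3%) lay under a peak in all lists and 1419 (81.2%) under none. Of 22198 coding windows, 54.6% lay under a peak in all lists. The median number of CG in a window was 18 for the 167 regions open in all lists that had a window. It was 5 for the 45 regions open in 1 to 3 lists. Over all LINC windows the medians were 17 under a peak in all lists, 6 in 1 to 3 lists and 3 in none. For coding windows they were 27, 17 and 6 in the same order, and 21 whether open or not. Of LINC windows with 0 to 3 CG, 2.96% of 810 were open in all lists. Of those with 24 or more, 50.3% of 163 were (interval 42.4% to 58.2%). The same ends were 5.07% of 3217 and 79.4% of 9713 for coding windows. A gene can have several windows, which are then not independent. From 12 to 15 CG the shares were 20.2% of LINC windows and 52.3% of coding windows, with intervals that do not overlap. From 8 to 11 CG, 22.4% of LINC windows and 27.3% of coding windows were open in all lists, with intervals that overlap.

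**Figure D2:**
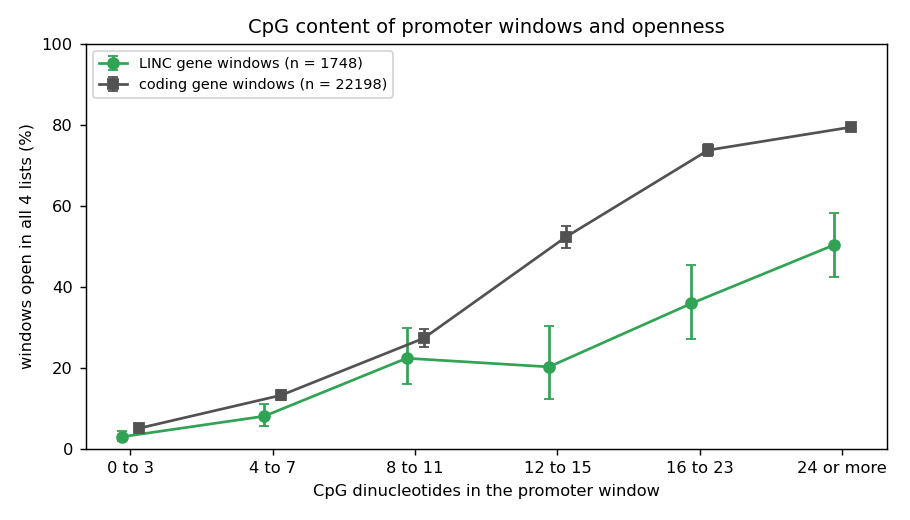
Share of RefSeq promoter windows that lie under a peak in all 4 lists (y, %) by the number of CG dinucleotides in the window (x), for LINC genes (green, 1748 windows) and coding genes (grey, 22198 windows), with exact 95% binomial intervals. The LINC share is 2.96% at 0 to 3 CG and 50.3% at 24 or more, and the coding share is 5.07% and 79.4%.

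Other short motifs were searched on both strands of the same windows. The letters GGGCGG, which Sp1 is known to bind and which hold a CG, occurred in 53.3% of the 167 member windows open in all lists, in 26.7% of the 45 open in 1 to 3 lists and in 45.0% of all 35116 windows of the table. Of all LINC windows 19.1% held these letters, as did 73.9% of coding windows open in all lists. The letters TATAAA occurred in 10.2% and 8.89% of the member windows, 16.2% of all LINC windows and 11.5% of all windows. Among LINC windows open in no list the share was 17.8%. The shares for CCAAT were 38.9% and 35.6% of the member windows, 36.0% of all LINC windows and 34.6% of all windows. TGACTCA or TGAGTCA occurred in 19 of the 212 member windows (8.96%), against 7.84% of all LINC windows and 4.95% of all windows. A match of letters is a description and not a binding site.

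The regions open in both lists of 1 genotype were few, and most were weak. Of the 382, 5 (1.31%, interval 0.426% to 3.03%) were open in both shARID1A lists only, and 10 (2.62%, interval 1.26% to 4.76%) in both shControl lists only. At coding promoters the shares were 0.724% and 0.552%, and at all other promoters 0.904% and 1.05%. Of the 5 regions of shARID1A, 4 had a mean rank past 50%, as did 9 of the 10 of shControl. No skipped number fell at the 5 regions of shARID1A. At 5 of the 10 regions of shControl the shARID1A DMSO list skipped a number, so 5 remained without this limit. The order of these counts also depends on the lengths of the lists. With the 44760 strongest peaks of each list, 10 of 368 regions were open in both shARID1A lists only and 6 in both shControl lists only. All 5 regions of shARID1A kept their pattern, while LINC00563, LINC01655, LINC01685 and LINC02473 lost theirs.

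LINC01595 (chromosome 19, 47863547 to 47863991, exon 2 of the gene) had the strongest peak found in both shARID1A lists only. Its peak ranked at 36.8% in shARID1A rapamycin and 31.4% in shARID1A DMSO, and neither shControl list had a peak within 5 kb. LINC00877 (chromosome 3, 72100648 to 72101205) ranked at 45.2% and 67.4% in the same order, with the nearest shControl peaks 17761 bp away in rapamycin and 17500 bp away in DMSO. LINC02361 (chromosome 12, 132189361 to 132190187), whose window is the richest in CG of those printed, ranked at 89.03% and 85.2%. LINC00877 and LINC02361 thus share a pattern of lists but not the CpG content of their windows. LINC02068 (chromosome 3) ranked at 76.5% and 93.96%. LINC00567 (chromosome 13) ranked at 98.6% and 89.4%, but shControl peaks ended 61 bp from the region in rapamycin and 34 bp in DMSO. They ended at 110811865 and 110811892, and the shARID1A DMSO peak began at 110811842, so both shControl peaks overlapped it. That shARID1A DMSO peak was centred 1066 bp from the TSS and was left out of the merged region. The pattern of LINC00567 thus rests on how its region was drawn.

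LINC00332 and LINC00488 led the regions open in both shControl lists only. LINC00332 (chromosome 13, 40181202 to 40181786) ranked at 51.7% in shControl rapamycin and 47.5% in shControl DMSO. LINC00488 (chromosome 3, 109177556 to 109178679) ranked at 58.1% and 50.97%. The nearest shARID1A peaks lay 64554 bp away in rapamycin and 93209 bp away in DMSO for LINC00332, and 45374 bp and 45378 bp away for LINC00488. The shARID1A DMSO list skipped 2 numbers around LINC00332 and 1 around LINC00488, and the shARID1A rapamycin list skipped none. Both windows hold the AP-1 letters, at 173 bases before the TSS in LINC00332 and at 211 and 110 bases before it in LINC00488, inside the peaks of both shControl lists. The other 4 windows of this pattern hold none.

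The other 8 regions open in both shControl lists only ranked lower. LINC02564 ranked at 51.97% in shControl rapamycin and 60.7% in shControl DMSO, and lies at the very start of chromosome 18 (10079 to 10427), next to telomere repeats. LINC00839 (chromosome 10, 42475552 to 42476028), studied in several tumours, ranked at 83.7% and 82.2%, with no shARID1A peak within 76 kb and no skipped number. LINC01862 ranked at 86.97% and 71.3%, and LINC02140 at 78.6% and 82.96%. LINC01655, LINC01685, LINC02473 and LINC00563 all ranked past 76% in both shControl lists. Of these, LINC02473 had shARID1A peaks nearby, 731 bp away at 23.6% in rapamycin and 710 bp away at 23.7% in DMSO.

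**Figure D3:**
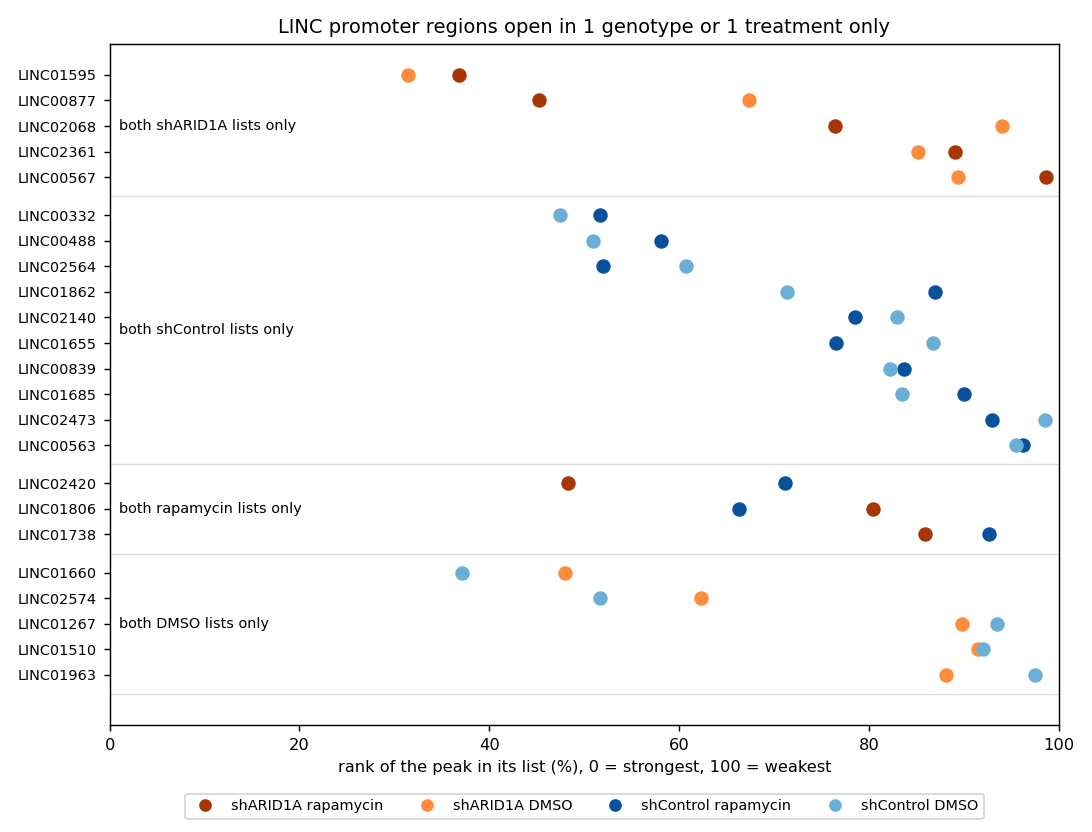
Rank of the peak within its list (x, %, 0 strongest) for the 23 LINC promoter regions (rows) open in both lists of 1 genotype or 1 treatment only, coloured by list. LINC01595 among the shARID1A regions and LINC01660 among the DMSO regions are the 2 with both peaks in the stronger 50% of their lists.

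Regions that followed the treatment in both genotypes were few. In both rapamycin lists only, 3 regions were open (0.785%, interval 0.162% to 2.28%), and in both DMSO lists only, 5 (1.31%, interval 0.426% to 3.03%). The shares at coding promoters were 0.453% for each pattern, and at all other promoters 0.539% for rapamycin and 0.738% for DMSO. With lists of equal length the order turned round, with 5 of 368 regions open in both rapamycin lists only and 3 in both DMSO lists only, as LINC01738 lost the first pattern and LINC01267, LINC01510 and LINC01963 lost the second. With a TSS distance of 300 bp, 0.376% of regions were open in both DMSO lists only. LINC02420 (chromosome 12, 67441417 to 67442024, in its intron) ranked at 48.3% in shARID1A rapamycin and 71.1% in shControl rapamycin. LINC01806 (chromosome 2, 161244181 to 161245008) ranked at 80.5% and 66.3%, and the shARID1A DMSO list skipped 1 number there. LINC01738 (chromosome 1) ranked at 85.9% and 92.7%. LINC01660 had the strongest peaks found in DMSO only, at 47.98% in shARID1A DMSO and 37.1% in shControl DMSO (chromosome 22, 18386904 to 18387469). It is FAM230J in RefSeq, 1 of several near-identical copies on that chromosome, so its reads are uncertain. LINC02574 (chromosome 1, 27662890 to 27663427) ranked at 62.3% and 51.7%. LINC01267, LINC01963 and LINC01510 all ranked past 88%. LINC01510 is COMETT in RefSeq, which lies antisense to the receptor gene MET.

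**Figure D4:**
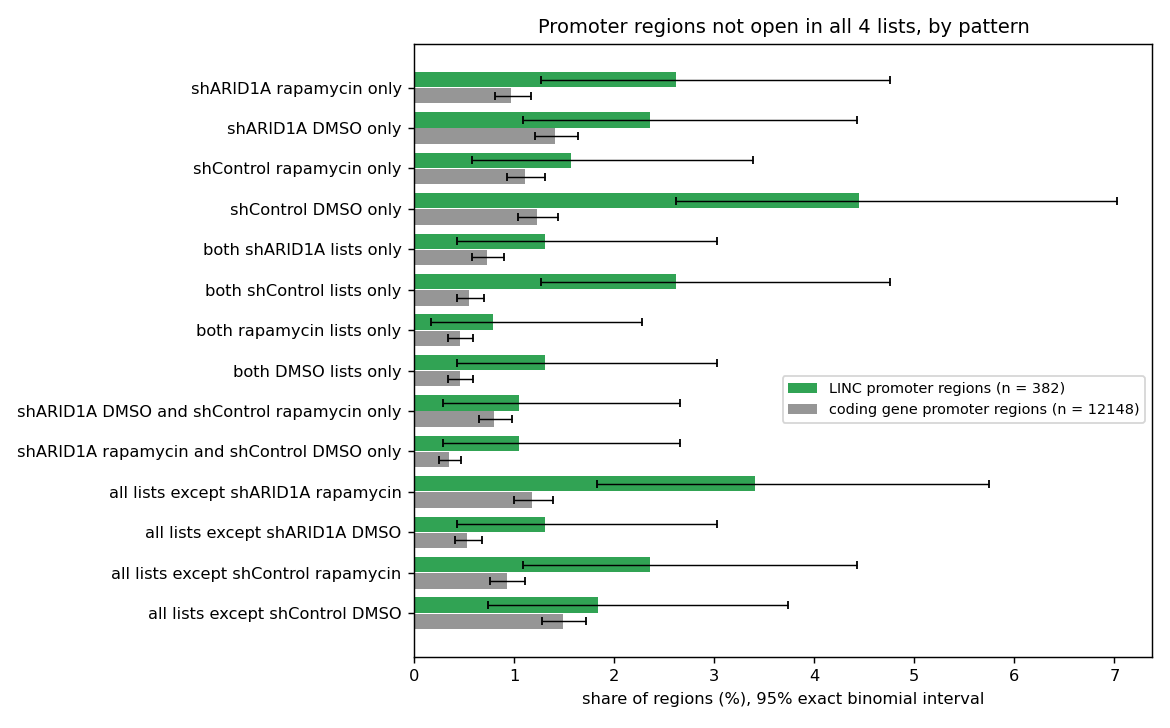
Share of LINC promoter regions (green, 382 regions) and coding gene promoter regions (grey, 12148 regions) with each pattern of lists other than all 4 (x, %, exact 95% binomial intervals). The longest LINC bars are for shControl DMSO only, the longest list, with 17 regions, of which 6 have a skipped number in a list that lacks them, and for all lists except shARID1A rapamycin, with 13.

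Regions seen in 1 list only outnumbered those that followed genotype or treatment, at 42 of 382 (10.99%, interval 8.04% to 14.6%), against 4.71% of coding regions and 7.97% of all other promoter regions. Of the 42, 10 were found in shARID1A rapamycin, 9 in shARID1A DMSO, 6 in shControl rapamycin and 17 in shControl DMSO. A list that lacked the region skipped a number there in 3, 0, 2 and 6 of these, in the same order. The shControl DMSO list is also the longest, and with lists of equal length the counts were 10, 14, 4 and 11 of 368 regions. A further 13 regions were open in all lists but shARID1A rapamycin, 5 in all but shARID1A DMSO, 9 in all but shControl rapamycin and 7 in all but shControl DMSO. These were 3.40%, 1.31%, 2.36% and 1.83% of the 382. At all other promoters the shares were 1.64%, 0.923%, 1.22% and 1.65%, and at coding promoters 1.18%, 0.527%, 0.922% and 1.48%. Of the 222 pairs of a region and a list without a peak, 13 had a peak within 1000 bp, and the median distance to the nearest peak was 17697 bp. JUN-DT, named LINC01135 in the lists, is 1 of the near cases. It starts opposite JUN, a subunit of AP-1, whose peak covered both starts at 2.17% in shARID1A DMSO and 4.53% in shControl rapamycin. In shARID1A rapamycin a separate peak stood at LINC01135, at 71.3%. In shControl DMSO the JUN peak, at 5.80%, ended 322 bp short of it.

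With ARID1A knockdown in DMSO, the share of LINC promoters lost lay near that of other promoters of like rank. Of the 286 LINC promoter peaks of shControl DMSO, 36 had no overlapping peak in shARID1A DMSO (12.6%, interval 8.97% to 17.0%), beside 27.6% of all peaks and 5.67% of all other promoter peaks. Other promoter peaks weighted to the score deciles of the LINC peaks gave 10.9%, inside the interval. Of the 288 LINC promoter peaks of shARID1A DMSO, 23 had no overlapping peak in shControl DMSO (7.99%, interval 5.13% to 11.7%), beside 17.7% of all peaks, 6.53% of all other promoter peaks and 12.1% of those weighted to LINC deciles, which lies above the interval. Promoter peaks of other noncoding genes gave 13.9% lost, inside the LINC interval, and 11.8% gained, just above it. The lost peaks had a median rank of 81.5% and the gained peaks 85.2%. At 15 of the 36 lost peaks the shARID1A DMSO list skipped a number. With those counted as present, 7.34% were lost, and with lists of equal length 8.81% were lost and 12.2% gained, which turns round the order of losses and gains.

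The strongest peak gained with knockdown in DMSO was at LINC00937 (chromosome 12, 8396584 to 8397054), at 29.4% in shARID1A DMSO. It was also open at 31.4% in shARID1A rapamycin and 30.7% in shControl rapamycin, so shControl DMSO alone lacked it. LINC01595 and LINC00877, described above, and LINC01516, LINC00609 and LINC00954 followed, from 31.4% to 78.3%. The strongest lost peak was at LINC00115 (chromosome 1, 827228 to 827670), at 30.9% in shControl DMSO. It was found in no other list, nor were the next, LINC01792 at 38.7% and LINC02579 at 46.7%. LINC00332, LINC01079 and LINC00488 came after these. Of the 6 strongest losses in DMSO, then, LINC00332 and LINC00488 were lost in rapamycin too.

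**Figure D5:**
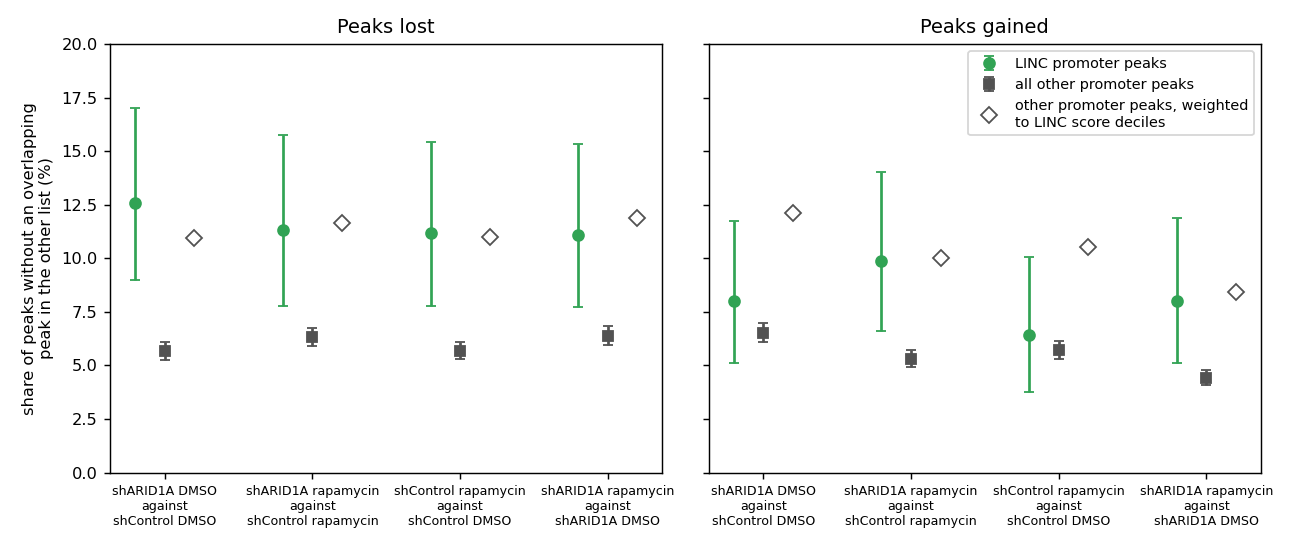
Share of promoter peaks without an overlapping peak in the other list (y, %) for 4 comparisons (x), for peaks lost (left) and gained (right). Green circles are LINC promoter peaks and grey squares all other promoter peaks, with exact 95% binomial intervals, and open diamonds are other promoter peaks weighted to the score deciles of LINC peaks. In the left panel the diamonds, from 10.9% to 11.9%, lie inside the LINC intervals.

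With knockdown in rapamycin, 30 of the 265 LINC promoter peaks of shControl were lost (11.3%, interval 7.77% to 15.8%), beside 26.7% of all peaks, 6.31% of all other promoter peaks and 11.7% after weighting. Of the 274 peaks of shARID1A rapamycin, 27 were gained (9.85%, interval 6.59% to 14.0%), beside 17.9% of all peaks, 5.32% of all other promoter peaks and 10.0% after weighting. The strongest loss was LINC01589 (chromosome 22, 45605283 to 45605891), at 20.6% in shControl rapamycin. It was open at 52.7% in shARID1A DMSO and 29.8% in shControl DMSO, so shARID1A rapamycin alone lacked it, and no skipped number fell there. LINC01823, LINC01149 and LINC01776 followed at 41.9%, 46.4% and 48.5%. The strongest gain was LINC01137, LITATS1 in RefSeq, which starts opposite ZC3H12A, the gene of the RNase regnase-1 (chromosome 1, 37474043 to 37474852). It ranked at 30.2% in shARID1A rapamycin, 36.9% in shARID1A DMSO and 60.9% in shControl DMSO, so shControl rapamycin alone lacked a peak. LINC01595 at 36.8%, LINC01570 at 44.0% and LINC00877 at 45.2% came next.

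Rapamycin in shControl cells gave 32 losses among the 286 peaks of DMSO (11.2%, interval 7.78% to 15.4%), beside 21.7% of all peaks, 5.69% of all other promoter peaks and 10.999% after weighting. It gave 17 gains among 265 (6.42%, interval 3.78% to 10.1%), beside 18.5% of all peaks, 5.71% of all other promoter peaks and 10.5% after weighting, which lies just outside the interval. Of the 176 LINC promoter peaks in the stronger 50% of shControl rapamycin, 0 were gains, which allows up to 2.07% and includes the 0.449% of other promoter peaks in that part of the list. The strongest of the 17 gains, LINC00609 (chromosome 14), ranked at 66.0%. The strongest losses were LINC00115, LINC01660, LINC01792 and LINC02579. Since shControl DMSO is the list both comparisons use, the same peaks of LINC00115, LINC01792 and LINC02579 count as lost with knockdown and with rapamycin.

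Rapamycin in shARID1A cells gave 32 losses among the 288 peaks of DMSO (11.1%, interval 7.73% to 15.3%), beside 21.2% of all peaks, 6.39% of all other promoter peaks and 11.9% after weighting. It gave 22 gains among 274 (8.03%, interval 5.10% to 11.9%), beside 19.3% of all peaks, 4.43% of all other promoter peaks and 8.44% after weighting. The shARID1A DMSO list skipped a number at 9 of the 22. LINC02372 (chromosome 12), the strongest gain at 36.5% in shARID1A rapamycin, was 1 of these 9. LINC02420 followed at 48.3% with no skipped number. The strongest losses were LINC01660 at 48.0%, LINC01589 at 52.7%, LINC02574 at 62.3% and LINC01149 at 62.6% in shARID1A DMSO. At promoters of other noncoding genes, losses were 14.2% with knockdown in rapamycin, 12.9% with rapamycin in shControl and 13.1% with rapamycin in shARID1A. Each lay inside the LINC interval. Gains there were 11.5%, 10.4% and 10.4% in the same order, and that for rapamycin in shControl lay just above the LINC interval.

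Among regions open in all lists, relative strength was compared within a common set, ranking the 31585 regions that all lists share, again with 0% the strongest. The median difference in rank over the 275 LINC regions was -1.02 points for shARID1A DMSO minus shControl DMSO and -1.90 points for shARID1A rapamycin minus shControl rapamycin. The same medians were -2.04 and -1.31 points for other promoter regions and -0.19 and -0.11 points for all 31585. For LINC regions it was -0.04 points for shControl rapamycin minus shControl DMSO and -0.85 points for shARID1A rapamycin minus shARID1A DMSO, beside -0.45 and 0.01 points for other promoter regions and -0.03 and -0.0032 points for all regions. A negative value means a stronger relative rank in the first list. Differences past 20 points were found at 32 (11.6%), 36 (13.1%), 31 (11.3%) and 20 (7.27%) of the 275, against 8.94%, 7.84%, 6.85% and 3.86% of the other promoter regions open in all lists and 16.2%, 16.5%, 10.9% and 8.82% of all regions open in all lists. The LINC shares thus lay above those of other promoters, and below those of all regions except for rapamycin in shControl cells. These shares were not weighted by rank, and LINC promoter peaks were weaker than other promoter peaks. Whether rank accounts for the difference was not tested.

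LINC01900 and LINC02596 were relatively weaker with knockdown in both treatments. LINC01900 (chromosome 18, 21980383 to 21981311) stood at 71.8% in shARID1A rapamycin and 63.8% in shARID1A DMSO, against 34.01% in shControl rapamycin and 29.1% in shControl DMSO. LINC02596 (chromosome 1, 21586564 to 21587397) stood at 91.97% and 95.7% in the shARID1A lists, against 61.6% and 59.98% in the shControl lists. Both were chosen for these differences, so their order between genotypes is a description. In the other direction, LINC01312 stood at 45.6% and 70.99% in shARID1A rapamycin and DMSO, against 91.5% and 84.99% in shControl rapamycin and DMSO. LINC01747 stood at 52.6% and 68.9%, against 88.5% and 87.96%, and LINC01948 at 65.3% and 72.02%, against 98.2% and 91.2%. All 3 were relatively stronger in both shARID1A lists than in both shControl lists, and they were chosen for 1 of these differences.

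LINC02136 (chromosome 16, 71426028 to 71427125) was relatively weaker with rapamycin in both genotypes, at 72.8% in shARID1A rapamycin against 45.05% in shARID1A DMSO, and 80.2% in shControl rapamycin against 33.6% in shControl DMSO. LINC01504 and LINC00607 were relatively weaker with rapamycin in shControl cells, with smaller differences the same way in shARID1A cells. LINC01504 stood at 71.9% in shControl rapamycin against 33.9% in shControl DMSO, and at 55.4% in shARID1A rapamycin against 50.8% in shARID1A DMSO. LINC00607 stood at 57.7% against 27.3% in shControl cells, and at 48.5% against 34.4% in shARID1A cells. LINC00466 and LINC02435 went the other way, with 55.1% in shControl rapamycin against 91.3% in shControl DMSO, and 50.8% against 83.2%. In shARID1A cells LINC00466 stood at 48.4% against 74.2% and LINC02435 at 63.9% against 66.0%. These regions were chosen for their differences in shControl cells. The region of LINC01116 and LINC01117, downstream of the HOXD cluster, stood apart in 1 list, at 87.1% in shARID1A rapamycin, 52.8% in shARID1A DMSO, 90.7% in shControl rapamycin and 90.4% in shControl DMSO.

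LINC genes known from liver and liver cancer had a promoter peak at shares whose intervals include those of LINC genes in general. Of 16 such genes, 7 in shARID1A rapamycin, 6 in shARID1A DMSO, 6 in shControl rapamycin and 5 in shControl DMSO had a promoter peak, by name or within 1 kb of a RefSeq TSS. Of the 16, 5 had one in all lists (31.25%, interval 11.02% to 58.7%) and 9 in none (56.25%, interval 29.9% to 80.2%). Of all 1583 LINC genes with a RefSeq window, 16.7% had one in all lists and 73.5% in none by the same rule. The 1583 hold only genes whose RefSeq symbol begins with LINC, so LINC00176, now C20orf204, is not among them. LINC01134 ranked at 4.42%, 2.13%, 0.95% and 3.23% in that order of lists. LINC00205, which starts opposite POFUT2, ranked at 12.3%, 13.8%, 17.96% and 11.8%. LINC00261, a neighbour of the endoderm regulator FOXA2, was weaker and ranked at 39.9%, 49.5%, 49.8% and 61.4%. LINC01348 ranked between 12.9% and 23.5%. LINC02499, a liver-enriched gene on chromosome 4 (73508197 to 73508893), had a promoter peak in shARID1A rapamycin only, at 80.4%, with no skipped number in the other lists. The peaks of LINC01348 and LINC02499 count by name only, as neither gene had a peak within 1 kb of its RefSeq TSS in any list. Liver genes such as LINC01018, LINC01093 and LINC01554 had no promoter peak in any list.

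LINC genes studied in growth, p53 or hypoxia responses and stem cells had a promoter peak in most cases. Of 16, 11, 10, 11 and 11 had a promoter peak in the 4 lists, and 10 had one in all of them (62.5%, interval 35.4% to 84.8%), against 16.7% of the 1583 LINC genes. The sets are unlike, as the 16 were listed because they are studied. The 1583 hold only genes whose RefSeq symbol begins with LINC. They thus leave out LINC00657 (NORAD in RefSeq), LINC00346 (PRECSIT) and LINC00152 (CYTOR), which are among the 16. LINC00265 ranked at 4.84%, 6.45%, 5.74% and 5.96%, and LINC00467 at 9.26%, 4.9%, 8.11% and 4.14%. The peaks of LINC00467 count by name only, with no peak within 1 kb of its RefSeq TSS in any list. LINC00346 ranked at 33.3% and 37.6% in shARID1A rapamycin and DMSO, against 23.3% and 18.5% in shControl rapamycin and DMSO. LINC-PINT, a noncoding gene that p53 is known to induce, had 2 promoter regions open in all lists. The stronger one (chromosome 7, from 131106079) ranked at 38.5%, 24.4%, 27.3% and 23.7%. The weaker one ranked past 69% in every list. LINC00511 counts as a promoter peak by name in shARID1A rapamycin alone, yet its region was open in all lists, at 45.7%, 48.2%, 46.97% and 31.1%. Its peaks in the other lists were assigned to RPL32P33, so its pattern rests on the naming of peaks.

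Genes named LINC that are now known to encode a small protein did not occur in the lists under their LINC names. Of 6, 3 had a peak within 1 kb of a RefSeq TSS in all lists, MTLN, SMIM26 and SMIM30, and SPAAR had one in shARID1A DMSO alone. Of 20 long noncoding RNA genes with other names, 14, 15, 14 and 14 had a promoter peak, 14 of them in all lists, among them MALAT1, GAS5, TUG1 and HOTAIR. NORAD, a former LINC gene whose RNA binds Pumilio proteins, ranked at 10.5%, 11.1%, 9.87% and 9.12%. NEAT1, the scaffold of paraspeckles, had 1 in shARID1A DMSO alone, at 71.6%. The peaks of NEAT1 and HOTAIR count by name only, as neither gene had a peak within 1 kb of its RefSeq TSS in any list. HULC, MEG3 and H19 had none in any list.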

How the data were processed

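Open chromatin was measured by ATAC-seq in 1 library for each of 4 groups of Huh7 cells. The submitters' processing notes name BWA, MACS2 2.0 and the build GRCh38 (hg38). Their settings, the read depth and the handling of duplicates were not given in the sources used here. Every deposited list belongs to 1 library and holds, per the file headers, a number, position and score for each peak, with its annotation, its nearest gene and the distance to that gene's TSS. The score is the authors' value of unknown scale, used to rank peaks within a list. Coordinates are as deposited.

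Members were peaks with a nearest gene named LINC and a distance of at most 1000 bp. A peak was lost if no peak of the other list overlapped it by 1 bp, and gained in the converse case. Overlapping members were merged into regions. Shares have exact (Clopper-Pearson) 95% intervals. With 1 library per group no test was made. Weighted shares average other promoter peaks over score deciles with the weights of LINC peaks. Of 380 member names, 341 matched a RefSeq symbol and 34 an older symbol, and 212 of 382 regions had a RefSeq window of 300 bases. The named genes are the strongest regions of each pattern, the 6 strongest lost and gained peaks of each comparison the 3 largest rank differences in each direction and members of the gene lists. LINC01135 was chosen after its values were seen. Members, gene lists and rules were chosen with earlier results of these data known. The overlap code was tested on an altered copy of the shControl DMSO list, with known peaks removed and peak ends shifted. Python 3.11.15, pandas 2.3.3, NumPy 2.4.6, SciPy 1.17.1 and matplotlib 3.10.9 were used. Alternatives covered the TSS distance, the overlap, list length, skipped numbers and shared promoters.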

Additional observations from a re-analysis of the deposited data

Results flagged for a closer look

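In 8 LINC promoter regions the direction with rapamycin was opposite in the 2 genotypes, since a peak was listed in 1 treatment of each. The difference was not tested, as each group held 1 library. Open in shARID1A DMSO and shControl rapamycin only were LINC01305 at ranks of 79.8% in shARID1A DMSO and 74.8% in shControl rapamycin, LINC01143 at 87.7% and 98.0%, LINC01750 at 96.8% and 89.3%, and LINC02027 at 95.4% and 93.4%. Of these, LINC01143 had a peak 443 bp away in shARID1A rapamycin. LINC01750 had peaks 512 bp away in shARID1A rapamycin and 663 bp away in shControl DMSO. Open in shARID1A rapamycin and shControl DMSO only were LINC00383 at ranks of 80.1% in shARID1A rapamycin and 64.7% in shControl DMSO, LINC00562 at 94.6% and 60.5%, LINC01231 at 94.7% and 60.7%, and LINC02192 at 98.8% and 77.3%. All 4 of these had a skipped peak number in a list that lacked them, and none of the first 4 had one. The shares, 1.05% of the 382 regions for each pattern (interval 0.286% to 2.66%), stood beside 0.798% and 0.346% at coding promoters. At all other promoters they were 0.988% and 0.545%. The shares at coding and at all other promoters lie inside the LINC interval.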

How the results depend on the processing

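Of 118 values of 19 results under alternatives, 92 stayed inside the 95% interval of the reported value. With a TSS distance of 5000 bp, losses with knockdown came to 19.3% in DMSO and 19.5% in rapamycin and gains in DMSO to 11.8%. Rapamycin in shControl gave 15.6% lost and 10.6% gained. Regions open in all lists were 60.8%, those in 1 list 17.4%, and the stronger 50% held 55.9% of LINC peaks in shARID1A DMSO, 57.7% in shControl rapamycin and 54.2% in shControl DMSO. With 300 bp, losses with rapamycin in shARID1A were 6.67%, regions open in all lists 77.1% and in both DMSO lists only 0.376%. With the 44760 strongest peaks of each list, knockdown in DMSO gave 8.81% lost and 12.2% gained, against 12.6% and 7.99%. Within the stronger 50% of each list, lost and gained shares were 2.82% and 1.10% for knockdown in DMSO, 2.27% and 2.21% for knockdown in rapamycin, 2.26% and 0.0% for rapamycin in shControl, and 0.549% and 1.10% for rapamycin in shARID1A. The shares of other promoter peaks there were 0.431% and 0.597%, 0.595% and 0.667%, 0.471% and 0.449%, and 0.501% and 0.245%, and those of all peaks 4.41% and 2.05%, 4.22% and 2.37%, 2.56% and 1.72%, and 2.03% and 1.34%, in the same order. Counting skipped numbers as present gave 7.34% lost with knockdown in DMSO and 4.74% gained with rapamycin in shARID1A. Regions shared with a coding gene were 8.64% by coding TSS, an alternative chosen after seeing the data, against 13.1% by gene ends and coding promoter peaks. The cause was not tested. Of 59 named regions, 14 changed pattern with lists of equal length, among them 4 of the 10 open in both shControl lists only and 3 of the 5 open in both DMSO lists only, 1 with an overlap of 50% of the shorter peak and 1 with a gap of 200 bp allowed. No paired analysis was possible because each group held 1 library. Depth is unknown, so an absent peak is not shown to be closed chromatin.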

Other observations

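Peaks nearest to a LINC gene but farther than 1000 bp from its TSS numbered 1350 in shARID1A rapamycin, 1332 in shARID1A DMSO, 1595 in shControl rapamycin and 1701 in shControl DMSO. Their median ranks were 58.0%, 58.4%, 57.7% and 57.2% in the same order. With knockdown in DMSO, 12.6% of the LINC promoter peaks were lost, against 36.4% of the 1701 distal peaks (interval 34.1% to 38.7%) and 27.6% of all peaks. With knockdown in rapamycin, 11.3% of the promoter peaks were lost, against 33.2% of the 1595 distal peaks (interval 30.9% to 35.6%) and 26.7% of all peaks. Averaged over deciles of rank with the weights of LINC promoter peaks, the distal shares were 24.01% and 19.8%, against 20.6% and 18.6% of all peaks. Rapamycin in shControl cells gave 24.1% lost among the 1701 distal peaks, against 21.7% of all peaks, and in shARID1A cells 25.1% among the 1332, against 21.2%. Weighted in the same way, these were 15.3% and 14.7% of distal peaks, against 15.8% and 14.6% of all peaks. Skipped numbers of the shARID1A DMSO list touch the losses with knockdown in DMSO, and their part in them was not tested.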
